A study of Homo sapiens with 6 samples.

Results

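Tight junction barrier genes were examined in HaCaT, a spontaneously immortalised keratinocyte line of human skin, with and without interferon beta (IFN-beta). The set was chosen by name and holds 9 of the 60671 genes in the deposited table: the claudins CLDN1, CLDN4, CLDN7 and CLDN12, occludin (OCLN), the junctional adhesion molecule F11R, the scaffolds TJP1 and TJP3, and cingulin (CGN). The IFN-beta group was 3 libraries of wild-type cells held for 24 h at 160 ng/mL in serum-free high-glucose DMEM, and the control group was 3 libraries held as long in that medium without interferon. All cells were grown with 10% serum to near confluence before the switch, so both groups share the serum withdrawal, and both come from 1 cell line. The comparison asks how a type I interferon alters transcripts of the keratinocyte barrier. Whether each library is a culture of its own is not stated in the labels, and if they are not, the p-values reflect technical scatter alone. IFN-beta libraries are called treated below.

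Tight junctions seal the space between neighbouring epithelial cells. Claudins are membrane proteins with 4 passes through the membrane whose strands set which ions and solutes leak through. Occludin and the immunoglobulin-like protein JAM-A, the product of F11R, join them in the membrane, and the zonula occludens proteins (such as ZO-1 from TJP1 and ZO-3 from TJP3) tie their tails to actin with the help of cingulin. In epidermis the seal lies in the granular layer, and mice that lack claudin-1 die of water loss through the skin.

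The libraries held between 25832158 and 30594527 reads, recovered from the steps of the FPKM values (fragments per kilobase of gene, scaled to the reads of the library), and all 9 genes had a value in every library. The treatment was visible in MX1, a textbook interferon target, at 4.57 ± 0.204 FPKM in control and 680 ± 15.7 FPKM in treated libraries (SD, n = 3 each). The RNA matched the keratinocyte label. All 11 basal keratinocyte markers looked at passed the filter on level. In the test described below 42.4% of all genes were called, and 5969 of the 11759 of at least 2 FPKM. Of the basal markers 6 were higher and 2 lower, or 72.7% called. Their summed level was 4196 to 4545 FPKM in control and 4319 to 4384 FPKM in treated libraries. Summed over its list, each other lineage was low: 1.77 to 3.29 FPKM for 8 fibroblast markers (DCN at 0 throughout), 0.696 to 2.22 for 6 endothelial markers (TEK and CLDN5 at 0), 3.34 to 4.69 for 6 melanocyte markers (MLANA, TYR and SOX10 at 0) and 2.82 to 4.05 for 6 immune markers (MS4A1 and LYZ at 0). These sums did not overlap between groups for fibroblast markers (COL1A1 at 1.80 ± 0.461 and 2.69 ± 0.401 FPKM), endothelial markers (CDH5 at 0.731 ± 0.0847 and 1.97 ± 0.101 FPKM), both of them higher in treated libraries, and melanocyte markers (MITF at 2.91 ± 0.299 and 2.10 ± 0.283 FPKM, but PMEL at 1.41 ± 0.0047 and 1.57 ± 0.224 FPKM). Keratins of simple epithelia were also high, with a sum of 3557 to 3818 FPKM in control and 3506 to 3699 FPKM with IFN-beta. Markers of differentiated keratinocytes summed to 59.1 to 64.3 FPKM in control and 35.9 to 40.6 FPKM in treated libraries, a sum made up mostly of KRT10, which fell from 49.2 ± 1.84 to 21.7 ± 2.09 FPKM. Of the 5 tested markers in that list 1 rose and 1 fell, or 40.0% called against 42.4% of all genes. TGM1, the transglutaminase of the cornified envelope, rose from 5.63 ± 1.46 to 9.06 ± 0.494 FPKM, and KRT1, IVL and FLG did not pass. LORICRIN, a marker of the last steps of differentiation, was at 0 throughout. The part of these shifts in the results below was not tested. In bulk RNA, fewer cells of a type and less RNA per cell cannot be told apart.

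With IFN-beta CLDN1 and CLDN4 rose and F11R fell, while OCLN, TJP1, TJP3, CGN, CLDN7 and CLDN12 did not pass the test. The largest called change was in CLDN1, at 1.42-fold, and CLDN4 was 1.17-fold its control level. Thus 3 of the 9 genes passed, by limma on log2(FPKM + 0.5) with p-values adjusted over all genes tested and a threshold of 0.05. Across the 15163 genes tested 42.4% passed, 22.5% higher and 19.9% lower, so a share of 33.3% is not above the background. After quantile normalization the split was 2 higher and 3 lower; over all genes, 53.2% of calls were higher, but 63.2% on the TPM scale (each library rescaled to 1 common sum) and 41.3% after quantile normalization. The groups did not overlap in 6 of the 9 genes, 3 higher and 3 lower, against 54.0% of all genes (28.6% higher and 25.4% lower). The median log2 difference of the 9 genes was -0.006, beside 0.01 over all genes, and the median size of change was 0.22 beside 0.192. Of all genes tested, 8.36% were called with a rise at least as large as that of CLDN1. The summed FPKM of all 9 genes was 477 ± 10.4 in control and 528 ± 13.5 in treated libraries, without overlap (p = 0.1 in a two-sided exact permutation, the smallest value possible for 3 against 3). Most of that rise was in CLDN1 alone, which went from 109 ± 0.858 to 154 ± 4.84 FPKM.

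**Figure D1:**
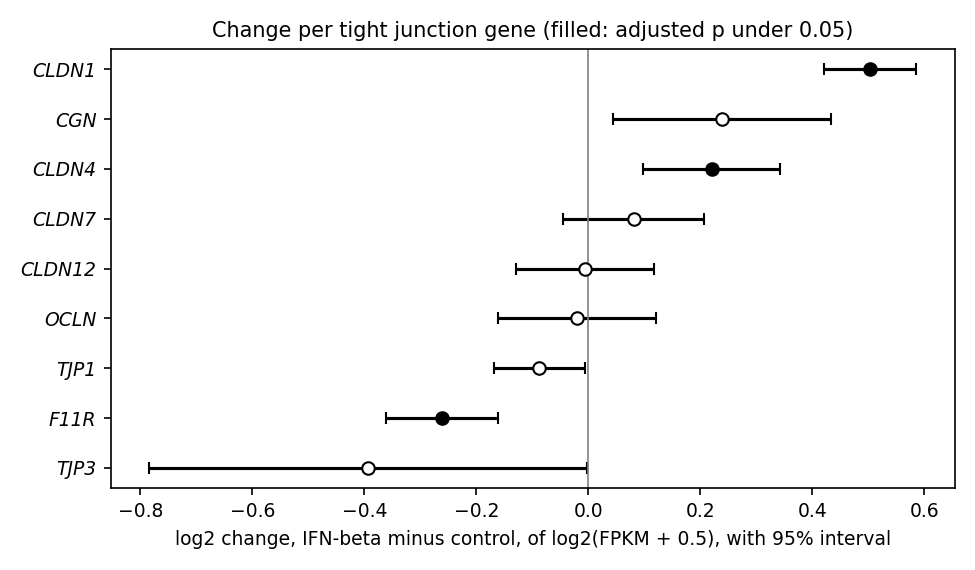
Log2 change of each tight junction gene between 3 IFN-beta and 3 control libraries on the log2(FPKM + 0.5) scale, with 95% intervals from limma; filled points had an adjusted p under 0.05. CLDN1, CLDN4 and F11R are filled, and the interval of TJP3 is the widest, from -0.78 to -0.0024.

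The 9 genes covered a wide range of levels. In control libraries CLDN7 stood highest at 156 ± 8.14 FPKM, followed by CLDN1 at 109 ± 0.858 FPKM, TJP1 at 62.9 ± 1.09 FPKM, F11R at 46.0 ± 1.58 FPKM, CLDN12 at 42.8 ± 2.77 FPKM and CLDN4 at 31.1 ± 1.60 FPKM. Lower levels were found for CGN (18.5 ± 2.01 FPKM), OCLN (9.74 ± 0.345 FPKM) and TJP3 (1.49 ± 0.426 FPKM). Of these neighbours only F11R and CLDN12 had overlapping ranges in the control libraries. With IFN-beta the ranges of CLDN7 and CLDN1 overlapped, at 165 ± 10.6 and 154 ± 4.84 FPKM, as did those of F11R and CLDN4, at 38.3 ± 1.12 and 36.3 ± 1.74 FPKM, and CLDN12 stood above F11R. Among all genes tested, CLDN7 lay at the 94.9th percentile of level, OCLN at the 45.9th and TJP3 at the 15.7th.

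**Figure D2:**
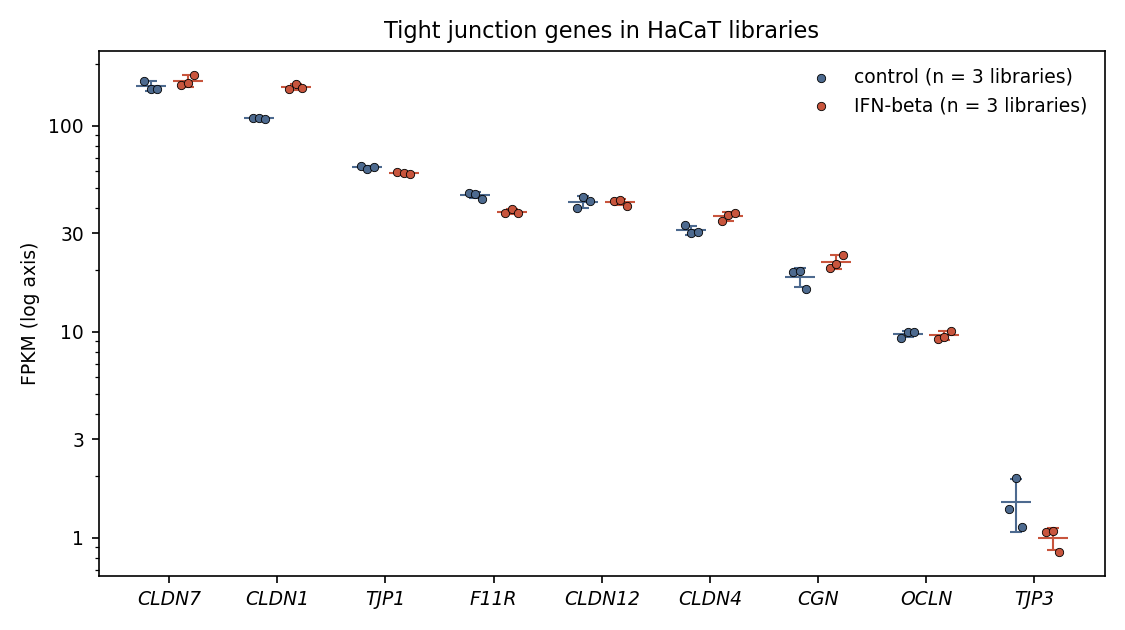
FPKM of the 9 tight junction genes (log axis) in each of 3 control and 3 IFN-beta libraries, ordered by control level; points are libraries and bars the mean with SD. The IFN-beta points of CLDN1 lie wholly above its control points and those of F11R wholly below, while those of OCLN and CLDN12 overlap the controls.

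The order depends in part on the gene length that entered the FPKM. That length was 1017 bases for CLDN7, 1174 for CLDN12, 1506 for CGN and 3940 for OCLN, which is shorter than the longest transcripts annotated in GENCODE release 29 (1923, 3565, 5091 and 6438 bases). Across 9124 genes with several transcripts and more than 200 reads in each library, it lay within 10% of the mean transcript length in 87.9%, and within 10% of the longest transcript in 2.2%. Per kilobase of the longest transcript, control levels were 82.5 ± 4.31 for CLDN7, 60.5 ± 0.478 for CLDN1, 16.9 ± 0.866 for CLDN4, 14.1 ± 0.913 for CLDN12, 5.96 ± 0.211 for OCLN and 5.46 ± 0.594 for CGN, in the unit of FPKM. On that scale CLDN4 changed places with CLDN12 in control libraries, and OCLN with CGN, the latter pair with overlapping ranges. With IFN-beta CGN stayed above OCLN, and CLDN4 stood above F11R, at 19.7 ± 0.943 and 16.3 ± 0.479. F11R stood above CLDN12 in both groups. Changes between groups for 1 gene do not depend on this length, apart from the pseudocount.

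CLDN1, the claudin that keeps the epidermal water barrier, rose and had the largest called change of the set. It read 109, 109 and 108 FPKM in the control libraries and 150, 160 and 153 FPKM in the treated ones, from 5393 to 6362 and 8220 to 9065 reads. All 3 treated libraries lay above all 3 controls, and the controls lay close together. The log2 difference of log2(FPKM + 0.5) was 0.50 ± 0.036 (SE, limma adjusted p = 1.06e-05), with a 95% interval of 0.42 to 0.59, or 1.42-fold between the means. When any 1 library was left out it stayed between 0.48 and 0.52.

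The table places CLDN1 (ENSG00000163347) on chromosome 3 from 190305707 to 190322446, on the minus strand, and CLDN16, a claudin known from renal magnesium uptake, starts 94 bases further on and runs the other way. CLDN16 was low, at 29, 53 and 18 reads in controls against 74, 68 and 69 with IFN-beta, that is 0.738, 1.33 and 0.525 against 1.85, 1.93 and 1.70 FPKM. Its groups did not overlap either, with a log2 difference of 0.81 ± 0.20 (limma adjusted p = 0.0117), which no longer passed when all genes above 0 were tested (limma adjusted p = 0.0553). CLDN16 was the only called gene of the other claudins, and its place beside CLDN1 was looked up after its values were seen. The stretch between the GENCODE starts of these divergent claudins (GRCh38, chr3:190322476-190322540, 65 bases, intergenic; GENCODE starts CLDN1 further upstream than the deposited table does) is shown because both neighbours were higher with IFN-beta. It is read from the minus strand, towards CLDN1, and 80.0% of its bases are G or C.
CLDN1 upstream: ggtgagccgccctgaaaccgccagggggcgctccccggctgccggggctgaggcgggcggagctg

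Neither letter pattern searched for interferon factors occurred in the RefSeq promoter window of CLDN1 (GRCh38.p14, from 250 bases before to 50 after the start). The patterns were GAAA repeated after any 2 bases, the core of the interferon-stimulated response element, and TTCNNNGAA, the gamma-activated site, on both strands. Over all 35116 promoter windows of this length, 3.57% held the first and 7.66% the second. The 5 interferon genes used as a check (MX1, IFIT1, ISG15, OAS1 and IFI6) had 7 windows. Of these windows 5 held the first pattern, at 4 genes, and 2 held the second, at 2 genes. RefSeq windows were at hand for 8 of the 9 genes, 14 windows in all, and F11R had none. The first pattern occurred in 1 of the 14, upstream of CLDN7, and the second in 1, at CLDN12. The upstream sequence of CLDN7 is shown with that match in capitals (GRCh38.p14, chr17:7263214-7263463, minus strand, inside the deposited bounds of the gene but outside annotated exons). The match begins 139 bases before the start, and the window at the other RefSeq start of CLDN7 held none.
CLDN7 upstream: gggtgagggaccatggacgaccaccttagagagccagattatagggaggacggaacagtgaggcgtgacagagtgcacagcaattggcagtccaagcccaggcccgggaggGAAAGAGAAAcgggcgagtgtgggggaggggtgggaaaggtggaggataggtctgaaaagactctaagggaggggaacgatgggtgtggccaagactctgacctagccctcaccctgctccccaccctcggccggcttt

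Other letters searched on both strands were CAGGTG, the E-box bound by SNAI repressors, aaccggtt, the grainyhead palindrome, and TATAAA, the TATA box. CAGGTG occurred in 5 of the 14 windows (1 of CLDN7, both of OCLN, 1 of TJP1 and 1 of TJP3) and in 20.59% of all windows. Neither of the other patterns occurred at the 8 genes, against 0.13% and 11.53% of all windows.

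CLDN7, which pairs with EPCAM in many epithelia, did not pass the test. It read 165, 151 and 152 FPKM in the control libraries and 157, 161 and 177 FPKM in the treated ones. The highest value was IFN-beta replicate 3 and the groups overlapped, with a log2 difference of 0.08 ± 0.055 (limma adjusted p = 0.273, 95% interval -0.04 to 0.21). It was 0.029 without IFN-beta replicate 3 and 0.12 without control replicate 1. Of its exonic bases 10.8% are shared on the same strand with a gene listed at 0 and 1.5% lie opposite ELP5. CLDN7 (ENSG00000181885) lies on chromosome 17 from 7259903 to 7263983.

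CLDN4, a claudin of simple and stratified epithelia known for tightening the seal to cations, rose. Its values were 33.0, 30.01 and 30.4 FPKM in the control libraries and 34.4, 36.7 and 37.8 FPKM in the treated ones, from 1771 to 2610 reads. The groups did not overlap, but control replicate 1 and IFN-beta replicate 1 lay close together. The log2 difference was 0.22 ± 0.054 (limma adjusted p = 0.0104, 95% interval 0.10 to 0.34), and its adjusted p ran up to 0.0445 when single libraries were left out. CLDN4 (ENSG00000189143) lies on chromosome 7 from 73799542 to 73832693.

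CLDN12, a claudin that lacks the usual PDZ-binding tail, was measured at 39.8, 45.3 and 43.4 FPKM in control and at 43.3, 43.5 and 41.0 FPKM in treated libraries. No treated library lay outside the control range. The log2 difference was -0.01 ± 0.054 (limma adjusted p = 0.938), with a 95% interval of -0.13 to 0.12 that covers scatter between libraries only. Of the exonic bases of CLDN12 16.3% are shared with other genes on the same strand. Among these is GTPBP10, which had a log2 difference of 0.21 (limma adjusted p = 0.0159). The level of CLDN12 and its change are therefore uncertain. CLDN12 (ENSG00000157224) lies on chromosome 7 from 90383721 to 90513402.

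Of the 4 claudins, CLDN1 took a larger share with IFN-beta. It made up 31.3, 32.6 and 32.3% of their summed FPKM in the control libraries and 39.0, 39.8 and 37.4% in the treated ones, shares that rest on the lengths above. The ratio of CLDN1 to CLDN7 went from 0.697 ± 0.0354 to 0.936 ± 0.0664. Neither quantity overlapped between groups (two-sided exact permutation p = 0.1 each, the smallest value possible). Both were looked at after the values were seen, so these p-values are descriptive only. The summed FPKM of the 4 claudins was 339 ± 7.33 in control and 398 ± 12.1 in treated libraries, without overlap (p = 0.1 in the same exact permutation, again the smallest).

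OCLN, the occludin gene, was measured at 9.34, 9.97 and 9.91 FPKM in control and 9.26, 9.45 and 10.1 FPKM in treated libraries, from 989 to 1217 reads. The highest and the lowest of the 6 values were both treated libraries. The log2 difference was -0.02 ± 0.062 (limma adjusted p = 0.818, 95% interval -0.16 to 0.12). OCLN (ENSG00000197822) lies on chromosome 5 from 69492292 to 69558104, and its pseudogene copy OCLNP1 on the same chromosome had at most 3 reads in any library.

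F11R, which encodes the adhesion molecule JAM-A, was the one gene of the set called lower. It read 47.3, 46.5 and 44.2 FPKM in the control libraries and 37.6, 39.6 and 37.6 FPKM in the treated ones, from 2353 to 2880 and 2166 to 2371 reads. All 3 treated values lay below all 3 controls. The log2 difference was -0.26 ± 0.044 (limma adjusted p = 0.0015, 95% interval -0.36 to -0.16), and it stayed between -0.29 and -0.24 when single libraries were left out. F11R (ENSG00000158769) lies on chromosome 1 from 160995211 to 161021343, and 36.6% of its exonic bases are shared on the same strand with AL591806.3, an overlapping gene with 0 to 10 reads per library. How reads in shared exons were counted is not given in the sources used here, so the level of F11R is uncertain.

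TJP1, the gene of ZO-1, the scaffold on which claudins assemble, was measured at 64.0, 61.8 and 63.0 FPKM in control and 59.8, 59.3 and 58.5 FPKM in treated libraries. The groups did not overlap, yet the log2 difference of -0.09 ± 0.036 did not pass (limma adjusted p = 0.0786, 95% interval -0.17 to -0.01). It passed after quantile normalization (-0.12, limma adjusted p = 0.0265) and with median-of-ratios size factors (-0.11, limma adjusted p = 0.0417), and shrank to -0.042 on the TPM scale. TJP1 (ENSG00000104067) lies on chromosome 15 from 29699367 to 29968865.

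TJP3, the gene of ZO-3, was the lowest of the set and rested on few reads. Its controls had 69, 99 and 49 reads and its treated libraries 54, 48 and 44, or 1.38, 1.96 and 1.13 against 1.06, 1.07 and 0.854 FPKM. Control replicate 2 lay far above the other controls, and control replicate 3 lay just above the highest treated library. The log2 difference of -0.39 ± 0.17 did not pass (limma adjusted p = 0.0973, 95% interval -0.78 to -0.0024). It was -0.23 without control replicate 2 (limma adjusted p = 0.309) and passed without control replicate 3 (-0.53, limma adjusted p = 0.0396), after quantile normalization (-0.51, limma adjusted p = 0.0362) and with voom on recovered reads (-0.57, limma adjusted p = 0.0474). The ratio of TJP1 to TJP3 was 44.6 ± 12.3 in control and 60.1 ± 7.39 in treated libraries, with overlap (two-sided exact permutation p = 0.2). TJP3 (ENSG00000105289) lies on chromosome 19 from 3708362 to 3750813.

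CGN, the gene of cingulin, which links ZO proteins to myosin, missed the threshold narrowly. It was measured at 19.4, 19.8 and 16.1 FPKM in control and 20.4, 21.4 and 23.7 FPKM in treated libraries, from 628 to 1090 reads. The groups did not overlap, with control replicate 3 well below the others and IFN-beta replicate 3 highest. The log2 difference was 0.24 ± 0.086 (limma adjusted p = 0.0513, 95% interval 0.04 to 0.43). It passed among genes of at least 2 FPKM (limma adjusted p = 0.0376), on the TPM scale (0.28, limma adjusted p = 0.0282), with robust eBayes (limma adjusted p = 0.0468), without control replicate 2 (0.29, limma adjusted p = 0.0455) and with voom on recovered reads (limma adjusted p = 0.0196). Without control replicate 3 it shrank to 0.15. CGN (ENSG00000143375) lies on chromosome 1 from 151510510 to 151538692.

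Other genes of the junction were counted in lists drawn up by function. The lists were chosen with earlier results of these data known, so their shares called are descriptive only. Besides the set, 20 claudins were listed, of which 3 were tested and 17 lay under the filter, none above 0.606 FPKM in any library and 5 at 0 in all of them. CLDN15 stood at 4.84 ± 0.737 and 3.82 ± 0.219 FPKM (log2 difference -0.30, limma adjusted p = 0.0603) and passed after quantile normalization (-0.40, limma adjusted p = 0.0116), with median-of-ratios size factors, among genes of at least 2 FPKM and without control replicate 3. CLDN23 differed by 0.40 (limma adjusted p = 0.109) and passed only with voom (limma adjusted p = 0.0352). The 4 claudins described above, chosen with earlier results of these data known, carried nearly all of the claudin RNA measured. They summed to 333 FPKM or more in each library, against at most 8.36 FPKM for the 20 others together.

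The counts in these lists read against 42.4% of all genes called, 22.5% higher and 19.9% lower. That background depends on level: among genes of at least 2 FPKM, 5969 of 11759 were called. Among 8 tested membrane proteins of the junction (of 11 listed) 2 rose and 1 fell (37.5% called), with a median log2 difference of 0.16. On the TPM scale 3 were called higher and none lower, and after quantile normalization 2 higher and 2 lower. LSR, angulin-1, which recruits tricellulin to corners where 3 cells meet, rose from 40.3 ± 2.07 to 60.8 ± 2.58 FPKM (log2 difference 0.59 ± 0.051, limma adjusted p = 3.32e-05). MARVELD3, a relative of occludin, rose by 0.22. Tricellulin itself (MARVELD2) differed by -0.13 and did not pass (limma adjusted p = 0.0808), though it did after quantile normalization (-0.17, limma adjusted p = 0.0405). CXADR, a relative of JAM-A, differed by -0.21 (limma adjusted p = 0.0301). That call ended on the TPM scale (limma adjusted p = 0.0714), with all genes above 0 tested (0.0766) and with eBayes without trend (0.0648). It also ended with the replicate number as a block (0.0603), and without control replicate 2 or 3 or IFN-beta replicate 2 or 3 (0.0704 to 0.103). The apical protein CRB3 differed by 0.10 and passed only without IFN-beta replicate 2 (limma adjusted p = 0.0416).

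Scaffold and polarity genes moved both ways, 4 higher and 8 lower of 18 tested (22 listed), or 66.7% called against 42.4% of all genes, with a median log2 difference of -0.015. On the TPM scale the split turned to 6 higher and 4 lower. Without control replicate 2 or IFN-beta replicate 3 only 6 of the 18 were called, and 7 without IFN-beta replicate 1. With all genes above 0 tested, 7 of 22 were called. The Par6 genes split, with PARD6B at 4.39 ± 0.326 and 8.02 ± 0.408 FPKM (log2 difference 0.80 ± 0.079) and PARD6G at 7.65 ± 0.350 and 5.35 ± 0.408 FPKM (log2 difference -0.48 ± 0.078), both of them past the threshold under every alternative run. The angiomotin-like AMOTL2 rose by 0.75. YBX3, the ZO-1-binding factor ZONAB, differed by 0.07, which passed only on the TPM scale (0.11, limma adjusted p = 0.0205) or quantile normalization (0.10, limma adjusted p = 0.0371). The kinase PRKCZ did not pass at 0.03, a sign that turned under quantile normalization (-0.022) and without control replicate 3 or IFN-beta replicate 2.

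Of 12 adherens junction genes 6 rose and 1 fell, or 58.3% called against 42.4% of all genes, with a median of 0.12, led by NECTIN2 (0.55), PLEKHA7 (0.49) and P-cadherin, CDH3 (0.36), while NECTIN1 (-0.18) and CTNNB1 (-0.05) did not pass. On the TPM scale none of the 12 was called lower. Among genes of at least 2 FPKM, where 5969 of all 11759 were called, the list had 7 of 12 called. Over the alternatives the number called ran from 5 to 8. It was 5 after quantile normalization, with eBayes without trend, with all genes above 0 tested, and without control replicate 2 or IFN-beta replicate 2. NECTIN1 passed without control replicate 3 (limma adjusted p = 0.00153), with median-of-ratios size factors (0.0393) and with voom (0.0226). Proteins that hold claudins or process EPCAM were counted apart, with 4 of 6 higher and none lower, beside 22.5% and 19.9% of all genes, and a median of 0.29. ST14, the membrane protease matriptase that cleaves EPCAM, rose from 137 ± 8.0 to 228 ± 15.3 FPKM (log2 difference 0.73 ± 0.058), its inhibitor SPINT1 rose by 0.40, and EPCAM, which binds claudin-7 and claudin-1, rose from 217 ± 6.03 to 266 ± 4.68 FPKM (0.29 ± 0.036). SPINT2 (-0.09) passed as lower only after quantile normalization (-0.13, limma adjusted p = 0.0336), and PRSS8 (0.06) did not pass.

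Of 12 tested transcription factors of epithelial junction genes (15 listed) 5 rose and 1 fell, against 22.5% higher and 19.9% lower of all genes. Their median was 0.14, and none was called lower on the TPM scale. KLF4, which drives barrier formation in epidermis, rose from 3.91 ± 0.219 to 8.17 ± 0.815 FPKM (log2 difference 0.97 ± 0.089), the grainyhead factor GRHL1 by 0.47 and TP63 by 0.40, while KLF5 (0.10) and ELF3 (-0.19) did not pass. GRHL2 and SNAI2 are named here after their values were seen. GRHL2, the more abundant grainyhead factor at 64.2 ± 1.80 and 58.2 ± 1.98 FPKM, was the gene called lower (-0.14, limma adjusted p = 0.0257). The GRHL2 call ended on the TPM scale, with eBayes without trend, and without control replicate 1 or 2 or IFN-beta replicate 2 or 3. SNAI2, a repressor of junction genes, rose by 0.36 (limma adjusted p = 0.000309). ELF3 passed without control replicate 3 (-0.34, limma adjusted p = 0.000634). The authors' pathway terms list 169 genes under the KEGG tight junction pathway, among them 8 of the 9 genes here (CLDN12 is the one left out). Of these 125 were tested, 32 rose and 29 fell. That is 48.8% called, against 42.4% of all genes and 5969 of 11759 genes of at least 2 FPKM. The median of the list was 0.007. The split was 38 and 20 on the TPM scale and 29 and 35 after quantile normalization. This list was added after the values were seen.

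**Figure D3:**
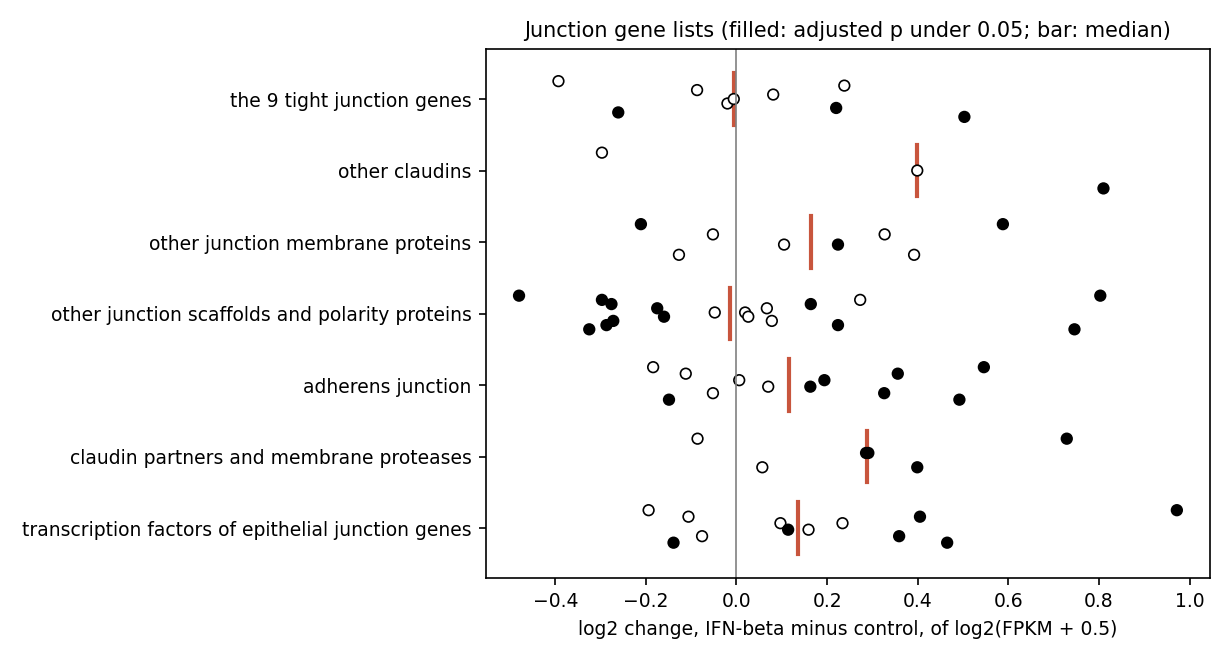
Log2 change between IFN-beta and control libraries (3 each) of every tested gene in the junction lists, one point per gene, filled where the adjusted p was under 0.05; vertical bars are list medians. PARD6G lies farthest to the left at -0.48 and KLF4 farthest to the right at 0.97, while the median of the 9 tight junction genes is -0.006.

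For CLDN1, OCLN and TJP1 the tested genes of at least 5 FPKM with the most similar profile over the 6 libraries were looked up by Pearson's r of log2(FPKM + 0.5). Nearest to CLDN1 were RAB11FIP1 and SUPT20H (r = 0.9996 each) and KDSR (r = 0.9993), with log2 differences of 0.52, 0.18 and 0.42. Nearest to TJP1 were METAP1 (r = 0.9958), UBE2J2 (0.9943) and SFXN2 (0.9905), and nearest to OCLN were ZNF688 (0.981), GATAD1 (0.9686) and PSMD13 (0.9628). Genes that differ between the groups share that difference, and 6 libraries are few, so these values describe these libraries alone.

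**Figure D4:**
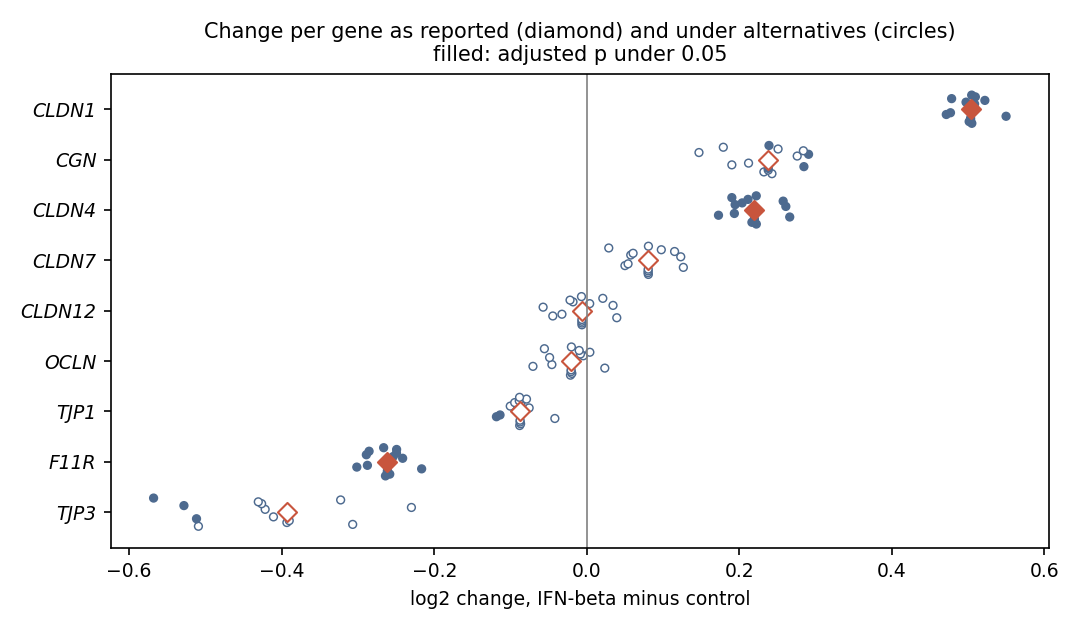
Log2 change of each tight junction gene as reported (diamonds) and under each alternative processing (circles), filled where the adjusted p was under 0.05. CLDN1, CLDN4 and F11R stay filled on 1 side of 0 in every alternative, CGN, TJP1 and TJP3 are filled in some, and OCLN, CLDN7 and CLDN12 in none.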

How the data were processed

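RNA from 6 libraries of HaCaT cells was sequenced. The authors deposited 1 table of FPKM values for 60671 human Ensembl genes, with coordinates and pathway terms. Per the labels' protocols CLC Genomics Workbench 11.0.1 was used, without a step named, and the submitters' processing notes name the mouse builds GRCm38 and mm10, while all 60671 identifiers are human. For aligner, counter and strand use the entry is "not given in the sources used here". Coordinates are printed as deposited. The build was inferred as GRCh38, since 76.83% of the 58453 identifiers shared with GENCODE release 29 have identical coordinates in it.

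Library totals and whole reads were recovered from the FPKM steps, with whole reads within 0.01 for 100% of 30507 genes above 0. At low counts a multiple of the recovered number is possible. The test was limma 3.58.1 (R 4.3.3) on log2(FPKM + 0.5) (eBayes with trend, two-sided, Benjamini-Hochberg over all 15163 genes with a mean of at least 0.5 FPKM, threshold 0.05). This scale understates the change of low genes. The fit was also run on simulated data, in which a far smaller share of genes changed than was called here. Python 3.11.15 made the tables.

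The 9 genes, the lists and the tests were chosen with earlier results of these data known. Named are all 9 genes, MX1, up to 3 called genes by size and up to 2 others by level of each list, and the 3 genes most like CLDN1, OCLN and TJP1. OCLNP1, CLDN5, the genes overlapping the set and the KEGG list were added later. Some related genes are not reported here. Promoters come from RefSeq (GRCh38.p14).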

Additional observations from a re-analysis of the deposited data

How the results depend on the processing

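The test was repeated with pseudocounts of 0.1 and 1, on all genes above 0 and on those of at least 2 FPKM, on values rescaled to 1 sum per library (TPM), by quantiles or by median-of-ratios size factors, with robust eBayes or with no trend, with the replicate number as block, without each library in turn, and as limma voom on recovered reads. Of 152 values of the 9 genes under these, 136 kept direction and side of the threshold, 10 passed where the reported value had not (TJP1, TJP3 and CGN), and 6 changed sign. CLDN1, CLDN4 and F11R were called in all 17 alternatives. The number called was 5 of 9 after quantile normalization and 5 with voom, where 3 were reported. The sign changes were in genes near 0: on the TPM scale CLDN12 was at 0.039 and OCLN at 0.024, and with single libraries left out CLDN12 ran from -0.057 to 0.0345 and OCLN from -0.055 to 0.0041. For the junction lists 474 values of 28 named genes were compared, GRHL2 and SNAI2 not among them. Of these values 448 kept direction and side of the threshold, 9 no longer passed (CLDN16 and CXADR), 14 newly passed and 3 changed sign. All 3 were of PRKCZ, which was at -0.022 after quantile normalization and ran from -0.062 to 0.081 without single libraries. The cause was not tested. Over all genes 5166 to 6876 were called, and 53.2% of calls were higher, with 63.2% on the TPM scale, 48.2% with median-of-ratios factors and 41.3% on quantile-normalized values, while the median change of all genes moved from 0.01 to 0.054 and -0.05.

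Same-numbered libraries did not deviate together (r of -0.052, -0.098 and -0.058 across genes). With the replicate number as a block 3 of the 9 genes and 5817 of all genes were called, CXADR no longer passed (limma adjusted p = 0.0603), and no library correlated best with its own number. TJP3 could not be fitted among genes of at least 2 FPKM. TJP3 rested on 44 to 99 reads a library, the fewest of the set. The summed FPKM of the 9 genes had a log2 ratio of 0.11 to 0.19 over its alternatives.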
